A study of Homo sapiens with 6 samples.

Results

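Adhesion G protein-coupled receptors (GPCRs) were examined in HCCLM3-SR cells, a sorafenib-resistant derivative of the human hepatocellular carcinoma (HCC) line HCCLM3, after knockdown of the circular RNA cDCBLD2. The members were the 7 rows of the gene expression table named ADGRG1, ADGRG6, ADGRL1, ADGRL2, ADGRE5, ADGRA2 and ADGRA3, out of 33 adhesion GPCR genes and 38637 genes in all. They were selected on the knockdown and control values of these same libraries, so the difference of each member between the groups is given as a description, with no test. PolyA-Seq of 6 libraries was compared. In the knockdown group, 3 libraries came from cells transfected with an siRNA against cDCBLD2, and in the control group, 3 libraries came from cells transfected with control siRNA. All 6 were made from cells of 1 resistant line that received 5 µM sorafenib, a multikinase inhibitor, with the siRNA acting for 3 days. No label ties the libraries to separate cultures, so every error and p-value here measures the spread between libraries, which may be technical. The table has no row for the circular RNA itself, and its knockdown could not be checked in these data.

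Adhesion GPCRs carry a long extracellular part joined to a membrane part of the usual heptahelical receptor form. Most cut themselves at a GPS motif inside a GAIN domain and keep both pieces together, and a short tethered agonist, freed when a ligand or mechanical pull moves the outer piece, switches on the G protein. The family links matrix proteins and neighbouring cells to signals through G proteins, cyclic AMP and the small GTPase RhoA. ADGRG1, also called GPR56, binds collagen III and transglutaminase and acts on RhoA, while ADGRG6, also called GPR126, binds collagen IV, laminin and the prion protein and raises cyclic AMP. ADGRL1 and ADGRL2 are latrophilins, which bind FLRT proteins and teneurins. ADGRE5, also called CD97, binds CD55 and integrins, ADGRA2, also called GPR124, works with RECK in WNT7 signalling, and ADGRA3, also called GPR125, is tied to cell polarity and has no ligand that is generally agreed on.

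The values are transcript abundances in TPM, a unit that corrects for depth and gene length, so the levels of different genes can be compared. The libraries held between 17492673 and 23064302 reads on genes, counted as the fewest whole reads that give the TPM values. Knockdown replicate 1 stood apart from the others. Leaving it out raised the genes called in the whole table, at an adjusted p under 0.05 in limma (Benjamini-Hochberg over 13980 genes), from 35 higher and 88 lower to 649 higher and 2771 lower, while leaving out any of the other 5 libraries took both counts to 0 with limma, with 2161 to 2803 genes at an unadjusted p under 0.05. Of 9 liver epithelial markers, 4 reached a mean of 1 TPM over all 6 libraries, namely AFP, APOB, KRT8 and KRT18. The hepatocyte genes ALB, APOA1 and TTR, the HCC marker GPC3 and EPCAM did not. TTR was still at 1.638, 1.550 and 1.298 TPM in the knockdown and at 0.241, 0.202 and 0.203 TPM in the control libraries. APOB was at 0.902 to 2.706 TPM in the knockdown and 2.716 to 4.262 TPM in the control libraries. The groups overlapped for neither gene, with TTR higher and APOB lower after knockdown, APOB by a narrow gap. The keratin genes KRT8 and KRT18 gave nearly all of the summed level of that list, 4806 to 5625 TPM in the control and 5810 to 6976 TPM in the knockdown libraries. Of 6 leukocyte markers only CD68 and LYZ reached that mean, PTPRC was at most 0.411 TPM, CD3E was at 0 in all 6 libraries, and the sum was 95.0 to 116 TPM in the control and 103 to 131 TPM in the knockdown libraries. Of 5 endothelial markers only PECAM1 reached that mean. Their sum was 3.81 to 5.84 TPM in the control and 4.59 to 5.23 TPM in the knockdown libraries. The part of all these markers in the results below was not tested.

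In the control cells the members spanned a wide range of levels. ADGRE5 was the most abundant at 90.3 TPM ± 2.14 (SD, n = 3), followed by ADGRL1 at 27.2 ± 1.29, ADGRA3 at 22.8 ± 1.39 and ADGRG6 at 21.7 ± 0.971. ADGRG1 lay at 5.46 ± 0.227 and ADGRA2 at 4.03 ± 0.758. ADGRL2 averaged 0.0158 TPM and was too low to judge. In this order only ADGRA3 and ADGRG6 had overlapping ranges, and the libraries of every other pair of neighbours were apart. In the knockdown cells ADGRE5 and ADGRL1 were again first and second, but ADGRA3, ADGRG1 and ADGRG6 overlapped as neighbours at 15.8 ± 1.78, 12.6 ± 1.93 and 12.0 ± 2.02 TPM. The summed level of the 7 members stayed between 168 and 177 TPM in the control and between 162 and 184 TPM in the knockdown libraries, and these ranges overlapped.

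ADGRG1, the collagen III receptor, lies on chr16:57610652-57665580 on the plus strand of GRCh38. Its level was 5.70, 5.24 and 5.45 TPM in the 3 control libraries. In the knockdown libraries it was 14.0, 10.4 and 13.5 TPM. Every knockdown library was above every control library, and the ratio of the group means was 2.31. On the log2(TPM + 1) scale, which was used for all differences, knockdown minus control was 1.06 against a within-group SD of 0.16, and the pairs of equal replicate number gave 1.16, 0.87 and 1.16. This difference ranked 84 from the top among the 13980 genes that averaged 1 TPM or more and were tested. Between 241 and 739 reads stood behind the value of each library, so counting error alone amounts to at most 6.44%. In a bulk library, a change in the share of cells that express a gene and a change of RNA per cell cannot be told apart.

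**Figure D1:**
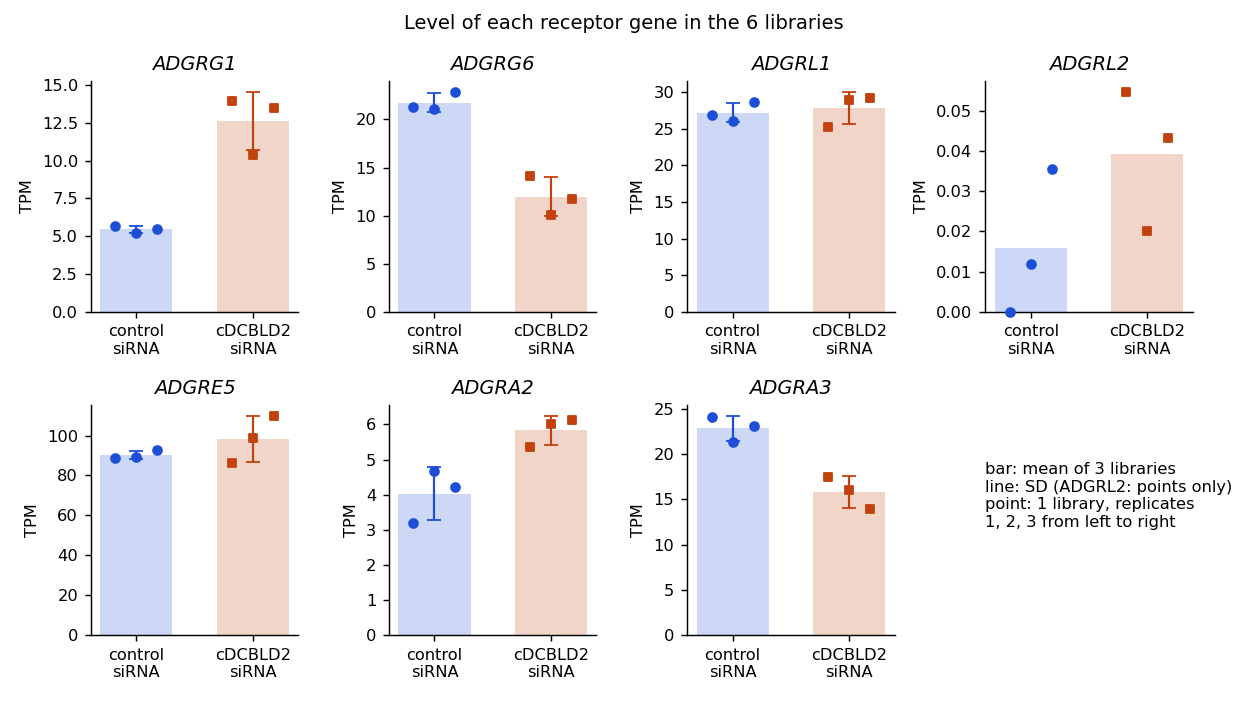
TPM (vertical axis, linear from 0, a separate scale per gene) of the 7 members in 3 control siRNA and 3 cDCBLD2 siRNA libraries, with bars for group means, lines for SD and points for single libraries. The groups do not overlap for ADGRG1 and ADGRA2, higher after knockdown, nor for ADGRG6 and ADGRA3, lower after knockdown, whereas ADGRL1, ADGRE5 and the barely detected ADGRL2 overlap.

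ADGRG6 belongs to the same subfamily and lies on chr6:142301854-142446266 on the plus strand. It was at 21.3, 21.1 and 22.9 TPM in the control and at 14.1, 10.1 and 11.7 TPM in the knockdown libraries. The groups did not overlap, and the control mean was 1.82 times the knockdown mean. The difference was -0.82, with pairs at -0.56, -0.99 and -0.91, and 776 to 1495 reads per library. It ranked 337 from the bottom of the tested genes. Leaving out knockdown replicate 1, the highest of its group, gave -0.94.

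The balance between the G subfamily members therefore differed between the groups. Within each library, where depth and scaling cancel, the TPM ratio of ADGRG1 to ADGRG6 was 0.268, 0.249 and 0.239 in the control libraries. After knockdown it was 0.991, 1.03 and 1.15. The trend with GC content described below does not cancel in this ratio, since the transcripts are at 58.1% for ADGRG1 and 41.1% for ADGRG6. With that trend removed, the difference was 0.98 in place of 1.06 for ADGRG1. For ADGRG6 it was -0.49 in place of -0.82. In the control cells ADGRG6 was the more abundant receptor in every library, and after knockdown the ranges of the pair overlapped. Of the summed TPM of the 7 members, ADGRG1 made up 3.08% to 3.35% in the control and 6.10% to 8.60% in the knockdown libraries, and ADGRG6 made up 12.5% to 12.9% and 5.91% to 8.68%.

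The A subfamily members also differed in opposite directions. ADGRA3, on chr4:22345071-22516054 on the minus strand, was at 24.1, 21.4 and 23.1 TPM in the control and at 17.4, 16.0 and 13.9 TPM in the knockdown libraries, a difference of -0.51. The groups did not overlap, and the control mean was 1.45 times the knockdown mean. ADGRA2, the WNT7 coreceptor, was at 3.19, 4.67 and 4.22 TPM in the control and at 5.37, 6.02 and 6.12 TPM in the knockdown libraries, a difference of 0.45 and a ratio of 1.45. Its groups did not overlap either, but the gap was narrow, since the highest control library and the lowest knockdown library were 4.67 and 5.37 TPM, and it had the fewest reads of the 6 measurable members, 151 to 398 per library. ADGRA2, on chromosome 8 at 37784191 to 37844896 on the plus strand, shares 1629 of its 7061 exon bases with BRF2 on the other strand. Whether the counting used strand is not given in the sources used here, so reads in the shared stretch cannot be told apart. BRF2, a subunit of an RNA polymerase III initiation factor, was at 12.5 TPM ± 1.57 after knockdown and 11.7 ± 1.54 in the control, and its groups overlapped.

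The most abundant members did not separate the groups. ADGRE5, on chr19:14380501-14408725 on the plus strand, was at 88.6, 89.4 and 92.7 TPM in the control and at 86.2, 99.0 and 109.5 TPM in the knockdown libraries. The knockdown group held both the lowest and the highest value, and the difference was 0.11 against a within-group SD of 0.12. ADGRL1, which lies on the same chromosome at chr19:14147743-14206187 on the minus strand, was at 26.9, 26.1 and 28.6 TPM in the control and at 25.3, 28.96 and 29.2 TPM in the knockdown libraries. Its groups overlapped, with a difference of 0.03 and an SD of 0.09. Both genes share exon bases with antisense genes, 252 for ADGRE5 and 473 for ADGRL1.

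ADGRL2, on chr1:81306160-81992436 on the plus strand, was represented by 4, 2 and 4 reads in the knockdown and by 0, 1 and 3 reads in the control libraries. Its highest level was 0.0547 TPM. For the library with 0 reads, a limit of 3 reads allows a level of up to 0.0421 TPM, which is above both group means, so no difference was detectable at this depth. These reads are the fewest whole numbers that fit the values, and the limit covers counting error only.

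Of the 6 members that averaged 1 TPM or more, the groups of 3 libraries did not overlap for 2 on the higher side, beside 9.58% of tested genes, and for 2 on the lower side, beside 22.3%. Since these values chose the members, nothing is read from the counts or from the medians that follow. The median difference was 0.07 over the 6 members and -0.08 over all tested genes. With the trend with GC content described below removed, these medians were -0.03 and -0.005. The selection has no stated threshold on a value, so there are no members just inside or outside one.

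**Figure D2:**
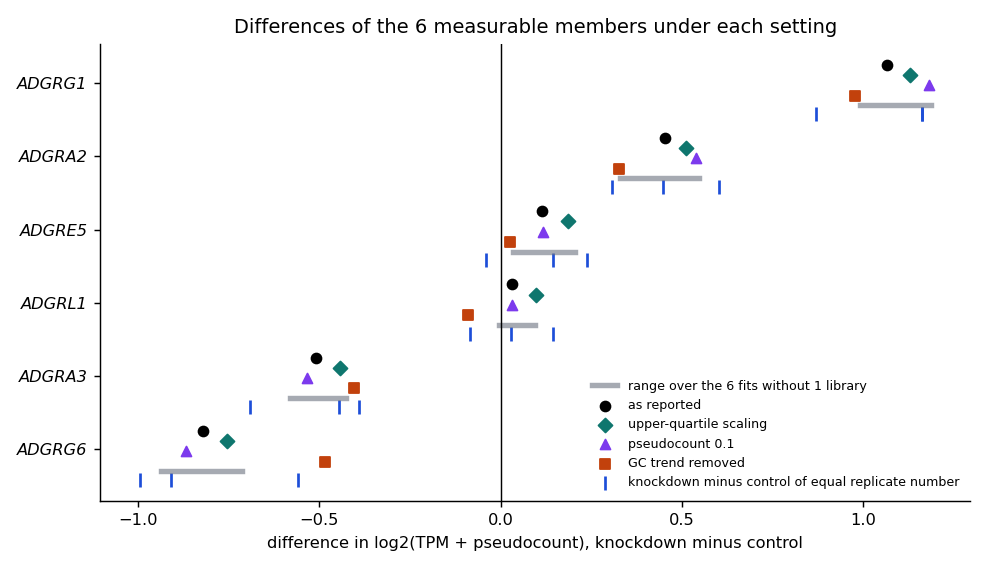
Difference in log2(TPM + pseudocount), knockdown minus control (horizontal axis), of the 6 measurable members under 4 settings, with the range over 6 fits that each left out 1 library and the 3 differences between libraries of equal replicate number. ADGRG1 and ADGRA2 stay above 0 and ADGRA3 and ADGRG6 below 0 throughout, and ADGRG6 moves from -0.82 to -0.49 when the trend with GC content is removed.

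The differences of all tested genes followed the GC content of their transcripts (Spearman correlation 0.635 across 13161 genes, which share these libraries and are not replicates). The members lay at different points of that trend. ADGRG6, with a GC content of 41.1%, stood among 2143 genes within 2 percentage points whose median difference was -0.33, and ADGRA3, at 48.3%, among genes with a median of -0.10. ADGRG1, at 58.1%, ADGRE5, at 58.3%, ADGRL1, at 61.4%, and ADGRA2, at 62.3%, stood among genes with medians of 0.06, 0.07, 0.10 and 0.11. With the trend removed in each library, the difference was 0.98 for ADGRG1, 0.33 for ADGRA2, -0.40 for ADGRA3 and -0.49 for ADGRG6. ADGRG1 kept most of its size, ADGRG6 kept its direction with a smaller size, and ADGRL1 went from 0.03 to -0.09.

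**Figure D3:**
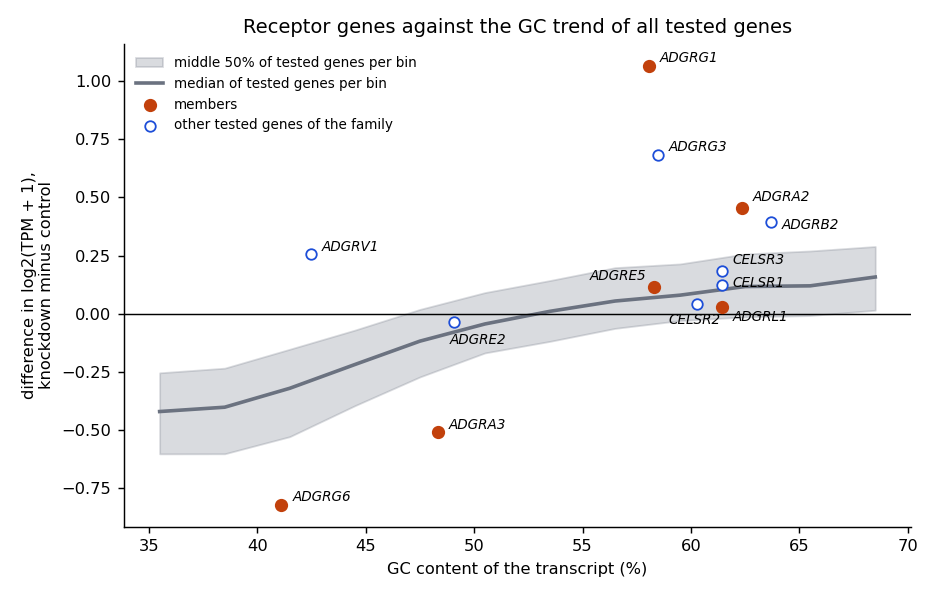
Difference in log2(TPM + 1), knockdown minus control (vertical axis), against the GC content of the transcript in percent (horizontal axis) for 6 members (filled) and 7 other tested genes of the family (open), with the median and middle 50% of all tested genes in bins 3 percentage points wide (grey). ADGRG1 at 1.06 and ADGRG6 at -0.82 lie outside the grey band, and ADGRE5 and ADGRL1 lie inside it.

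The study asked whether cDCBLD2 acts by binding the microRNA miR-345-5p, so the members' transcripts were searched for its seed match. A microRNA guides Argonaute to messages that pair with its seed, bases 2 to 8. The mature sequence and its matches in the 2 members shown are printed here 5′ to 3′ because they are the stretches through which that microRNA could pair. Capitals mark the seed in the microRNA, from RefSeq, and the 7 bases that match it in the transcripts, read from the genome sequence of GRCh38 along GENCODE 29 models.
miR-345-5p: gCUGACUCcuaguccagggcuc
ADGRG1 3′ UTR: ttcctgcagGAGTCAGcgttcaatc
ADGRL1 coding sequence, first: tcgacacacGAGTCAGagcaccagt
ADGRL1 coding sequence, second: atcgagcgcGAGTCAGccggcaaga
ADGRL1 coding sequence, last: ctcatcgccGAGTCAGtgggcttca

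The capitals of the ADGRG1 match lie at chr16:57664858-57664864 on the plus strand. The ADGRL1 matches lie at chr19:14163347-14163353, chr19:14160132-14160138 and chr19:14152351-14152357 on the minus strand. The coding sequence of ADGRA2 held 1 further match, and the transcripts of ADGRG6, ADGRL2, ADGRE5 and ADGRA3 held 0. Of 11532 tested genes with a coding transcript, 13.1% had the letters GAGTCAG in the coding sequence and 9.2% in the 3′ UTR on the transcript strand. In either region 21% of those genes had the letters. The members with a match were ADGRG1, ADGRA2 and ADGRL1. The members were selected on their differences, so the matches are not set against the direction of those differences. A match of 7 letters is a description and not a binding site.

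ADGRG1 sits in a cluster of its own subfamily, with ADGRG5 ending 18970 bases before it and ADGRG3 beginning 2606 bases after it. ADGRG3, also called GPR97, is best known from granulocytes. It was at 0.924, 0.935 and 0.814 TPM in the control and at 2.53, 1.53 and 2.12 TPM in the knockdown libraries, from 44 to 131 reads. The groups did not overlap and the difference of 0.68 was in the direction of ADGRG1. Its control mean was 0.891 TPM, so it passed the filter of 1 TPM only through the knockdown libraries, and its difference is given as a description. ADGRG5 had at most 2 reads in a library and was too low to judge.

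For 17 other tested genes with any part within 500 kb of ADGRG1, a window chosen after the values were seen and not reported in full, the differences ran from -0.31 to 0.68. ADGRG3 gave the highest of them. The next was 0.39 for DOK4, which encodes an adaptor protein docking to receptor tyrosine kinases. The groups did not overlap on the higher side for 4 of these genes, ADGRG3, DOK4, CCDC102A and ZNF319, beside 9.58% of all tested genes. ADGRG3 is counted only because it passed the filter through the knockdown libraries. On the lower side the groups were apart for 0 of the 17, beside 22.3%. They overlapped for 13 others, among them CX3CL1, a chemokine gene, and MMP15, a membrane metalloprotease gene.

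Of the 26 other adhesion GPCR genes, 7 averaged 1 TPM or more. None of the 7 passed the test in limma without a block. In that fit 1, ADGRG3, had an unadjusted p under 0.05, beside 3654 of all 13980 tested genes. Since ADGRG3 passed the filter only through the knockdown libraries, nothing is read from this. The fit with the replicate number as a block called 0 lower, beside 25.0% of all tested genes. It called 2 higher, ADGRG3 and ADGRB2, beside 9.94%. The filter applies to ADGRG3 as stated above, which leaves ADGRB2. CELSR1, a cadherin of planar cell polarity, was the most abundant at 70.6 TPM ± 5.75 after knockdown and 64.9 ± 6.24 in the control, and its difference of 0.12 (SE 0.10) did not pass (limma, adjusted p = 0.466). ADGRB2, a brain angiogenesis inhibitor receptor, differed by 0.39 (SE 0.18, limma, adjusted p = 0.213, blocked 0.0290, up to 0.509 over the alternatives), and its groups overlapped. With the GC trend removed its difference was 0.25 and the blocked fit no longer called it (limma, adjusted p = 0.0691). CELSR2, CELSR3, ADGRE2 and ADGRV1 gave differences of 0.04, 0.18, -0.04 and 0.25. ADGRV1 differed by 0.55 with the GC trend removed and was then called by the blocked fit (limma, adjusted p = 0.0463), beside 1525 of 13161 genes called higher. Its groups overlapped, and no call was made without the block (limma, adjusted p = 0.272) or with the trend kept (0.438, blocked 0.225). Over the alternatives its adjusted p from limma ran up to 0.751. The median over the 7, ADGRG3 counted, was 0.18, beside -0.08 over all tested genes, and 0.06 with the GC trend removed. The other 19 genes had means between 0 and 0.980 TPM, and 5 of them, ADGRL4, ADGRA1, ADGRE3, ADGRB3 and ADGRG4, were at 0 in all 6 libraries. ADGRL3, the third latrophilin, had the highest mean of these, at 0.933, 1.34 and 1.58 TPM in the control and 0.673, 0.679 and 0.677 TPM in the knockdown libraries. Its groups did not overlap, and it fell under the filter and was not tested.

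Of 24 genes for ligands and membrane partners of the members, 11 could be tested. In limma none was called, and 4 had an unadjusted p under 0.05, beside 3654 of all 13980 tested genes. The blocked fit called COL3A1 and ITGA5 higher, 2 of 11 beside 9.94% of all tested genes, and CD55, ITGB1 and PRNP lower, 3 of 11 beside 25.0%. COL3A1, which encodes the collagen III that ADGRG1 binds, was at 0.783, 0.476 and 0.546 TPM in the control and at 3.36, 1.78 and 1.96 TPM in the knockdown libraries, from 21 to 128 reads. The groups were apart, and the difference was 1.05. Its control mean was 0.602 TPM, so it too passed the filter only through the knockdown libraries, and its difference is given as a description. The fibroblast marker COL1A1 was at 1.13 to 3.35 TPM in the control and at 3.61 to 11.2 TPM in the knockdown libraries, with its highest value in knockdown replicate 1. COL1A2 was 2.67 TPM in that library and 0 in the other 5. LUM, the most abundant fibroblast marker, overlapped at 28.2 to 39.6 TPM in the control and 26.7 to 59.1 TPM in the knockdown libraries. DCN and PDGFRB stayed under 1 TPM in every library. The summed level of the 5 fibroblast markers was 29.6 to 43.1 TPM in the control and 30.5 to 73.6 TPM in the knockdown libraries. Their part in the COL3A1 result was not tested.

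ITGA5 encodes the alpha chain and ITGB1 the beta chain of the fibronectin receptor that CD97 binds. ITGA5 was at 73.6, 91.1 and 102.9 TPM in the control and at 116, 153 and 197 TPM in the knockdown libraries, so the groups were apart (difference 0.77, SE 0.21, limma, adjusted p = 0.0949, blocked 0.00436). With the GC trend removed ITGA5 differed by 0.74 (limma, adjusted p = 0.107 without the block and 0.00496 with it). ITGB1 was at 303 TPM ± 39.8 in the control and 236 ± 70.0 after knockdown, and its groups overlapped (difference -0.39, SE 0.21, limma, adjusted p = 0.279, blocked 0.0215). CD55, the complement regulator that CD97 binds, was at 22.0, 24.2 and 25.3 TPM in the control and at 16.9, 15.6 and 16.6 TPM in the knockdown libraries (difference -0.51, SE 0.09, limma, adjusted p = 0.0544, blocked 0.00812). Its groups did not overlap, and with the GC trend removed the difference was -0.19 and the blocked fit did not call it (limma, adjusted p = 0.0509). With the GC trend removed ITGB1 differed by -0.03 and was not called by the blocked fit (limma, adjusted p = 0.712). PRNP, the prion protein gene, differed by -0.19 (SE 0.16, limma, adjusted p = 0.490, blocked 0.0381), and by -0.04 with the GC trend removed, where the blocked call was lost (limma, adjusted p = 0.454). CD9, a tetraspanin that binds ADGRG1 and one of the 3 most abundant genes of the list with ITGB1 and PRNP, was at 223 TPM ± 2.40 in the control and 228 ± 11.6 after knockdown. Over the alternatives the adjusted p from limma ran up to 0.272 for ITGA5, 0.429 for CD55, 0.900 for ITGB1 and 0.879 for PRNP. The 13 partner genes that could not be tested included CD81, LAMA2, COL4A1 and WNT7A.

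Of 18 genes for G proteins, regulators of RhoA and scaffolds that act below these receptors, 17 could be tested. In limma 1 was called lower, beside 0.629% of all tested genes, and 0 higher, beside 0.25%. With the replicate block 7 were lower, beside 25.0%, and 1, GNA11, was higher, beside 9.94%. ARHGEF12, an exchange factor that joins the G proteins of this pathway to RhoA, was at 55.5, 52.6 and 57.4 TPM in the control and at 36.6, 26.6 and 30.2 TPM in the knockdown libraries. The groups were apart, and ARHGEF12 fell by 0.82 (SE 0.12, limma, adjusted p = 0.0483, blocked 0.00501). The other genes lower under the block were GNA13, GNAI1, GNAI3, ROCK1, ROCK2 and DLG1, with differences from -0.67 for ROCK1, a kinase that RhoA switches on, to -0.41 for GNAI3, an inhibitory G protein. Their GC contents ran from 37.1% to 41.8%, beside 41.7% for ARHGEF12, and with the GC trend removed and the block kept, 2 of the 17 were called lower, ARHGEF12 and ARHGEF1, beside 12.7% of the genes tested in that way. The call without a block was lost when no filter was used and when any 1 library other than knockdown replicate 1 was left out, with adjusted p from limma up to 0.222. With the trend removed ARHGEF12 differed by -0.50 (limma, adjusted p = 0.0555 without the block and 0.00652 with it). RHOA, GNAI2 and GNAS, the most abundant genes of the list at 927, 492 and 283 TPM over all libraries, differed by 0.04, 0.15 and 0.09 and did not pass either test. The median over the 17 was -0.11, beside -0.08 over all tested genes.

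Among 13979 other tested genes, those whose profile over the 6 libraries came closest to that of ADGRG1 were PMEPA1, GADD45G, MMP24, PHLDB1 and B3GNT8. Likeness was the root mean square difference between the log2(TPM + 1) profiles after each gene's mean was taken off, and it was 0.11, 0.11, 0.12, 0.13 and 0.13 for these genes. PMEPA1, which encodes an inhibitor of TGF-beta signalling, was at 7.18, 6.05 and 6.68 TPM in the control and at 17.7, 11.5 and 13.5 TPM in the knockdown libraries, with its lowest knockdown value in replicate 2, as for ADGRG1. GADD45G, a stress response gene, was at 8.87 to 10.3 TPM in the control and 19.8 to 22.1 TPM in the knockdown libraries. Among the adhesion GPCR genes ADGRG3 came closest, at rank 27 with 0.20, then ADGRA2 at rank 360 and ADGRB2 at rank 846. ADGRG6 was at rank 13362. The profiles hold the group difference on which the members were selected, so nothing is read from these ranks. ADGRG3 is ranked only because it passed the filter through the knockdown libraries.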

How the data were processed

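PolyA-Seq libraries of 3 cDCBLD2 knockdown and 3 control samples were analysed from the deposited TPM table, grouped by the labels. Per the labels, NEBNext Ultra libraries from total RNA were processed with fastp 0.20.1, HISAT2 2.1.0 and StringTie 2.0 on hg38, and the authors scaled values to TPM. TPM was tested as log2(TPM + 1) with limma 3.58.1 in R 4.3.3 (mean-variance trend, two-sided), over the 13980 genes averaging 1 TPM or more, with Benjamini-Hochberg adjustment and a threshold of 0.05. The study's methods name a count test and no block, but the deposited TPM values are not counts. A log2 difference understates the change of low genes because of the pseudocount. A depth was not given: whole reads were recovered from the TPM ratios of each gene (100% of 17285 genes above 0 in all libraries, tolerance 0.01 reads) as lower bounds, for counting precision only. The fit was tested on simulated data.

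Members and lists were chosen with earlier results of these data known. Named were all members, family genes of at least 1 TPM, list genes called in either fit (at most 10 per list) with the 3 most abundant of each list, and the 5 genes most like ADGRG1, and DOK4, CCDC102A, ZNF319, CX3CL1, MMP15, ADGRL3 and ARHGEF1 were added after their values were seen. A gene near ADGRG1 is not reported here. Equal replicate numbers deviated together (correlations 0.560, 0.343 and 0.362 over 13980 genes), which paired the samples although no label states a shared batch, so block values stand beside results they change. GC content came from GENCODE 29 transcripts for 13161 of the tested genes (94.1%, 25655 genes of the table matched by symbol and 1547 by gene ID). Alternatives were scaling, filter, pseudocount, gene type, block, GC trend and each library left out.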

Additional observations from a re-analysis of the deposited data

How the results depend on the processing

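The differences of the 6 members kept their direction under all 13 alternatives for ADGRG1 (0.98 to 1.19), ADGRA2 (0.33 to 0.55), ADGRE5 (0.03 to 0.20), ADGRA3 (-0.58 to -0.40) and ADGRG6 (-0.94 to -0.49), and 74 of 78 values moved by less than the within-group SD. The other 4 were ADGRG6 at -0.49 and ADGRL1 at -0.0899, each with the GC trend removed, with and without the replicate block. ADGRL1 was below 0 in 3 of 13 alternatives. Dropping the filter, keeping only protein-coding genes and adding the replicate block cannot change a member's difference. Values under those settings only repeat others, so they say nothing about how stable a difference is. Without 1 library the ranges were 0.99 to 1.19 for ADGRG1, -0.94 to -0.71 for ADGRG6, -0.01 to 0.09 for ADGRL1, 0.03 to 0.20 for ADGRE5, 0.33 to 0.55 for ADGRA2 and -0.58 to -0.43 for ADGRA3.

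Counts of calls changed more. All genes were called 35 higher and 88 lower, 59 and 62 with upper-quartile scaling, 3 and 1 of 25278 with no filter (4160 at an unadjusted p under 0.05), 106 and 288 of 11793 with protein-coding genes only, 1390 and 3501 with the replicate block, 3 and 2 of 13161 with the GC trend removed, 1525 and 1675 with both, and 0 to 649 and 0 to 2771 without 1 library. The scaling moved the median of all genes from -0.08 to -0.02. Other adhesion GPCR genes called higher were 2 with the replicate block, 2 with GC trend and block (ADGRG3 and ADGRV1) and 0 to 1 without 1 library, and called lower 0 throughout. Partner genes were 1 higher and 1 lower with protein-coding genes only (COL3A1 and CD55), 2 and 3 with the replicate block, 2 and 0 with GC trend and block, and 0 to 2 and 0 to 2 without 1 library. Signalling genes lower were 0 with no filter, 0 with the GC trend removed, 7 with the replicate block, 2 with both and 0 to 8 without 1 library, and higher 1 with the block and 0 without 1 library. The highest counts without 1 library all came without knockdown replicate 1. ADGRG3 and COL3A1, counted here, passed the filter only through the knockdown libraries. The cause was not tested. Among the other adhesion GPCR, partner and signalling genes the replicate block changed no other call. With 3 libraries a group an exact permutation test cannot go below 0.1, and depth limits ADGRL2. ADGRL3 was kept out by the filter on TPM, not by its reads.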
